A study of Mus musculus with 46 samples.

Results

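Microglia sorted from gliomas that had recurred after irradiation (IR) were compared with microglia sorted from gliomas of vehicle-treated mice. The comparison used 8 of the 46 RNA-seq libraries of the study, chosen by the population and the stage in the labels: 4 from IR recurrence (mice 68343, 68344, 68345 and 68346) and 4 from vehicle (mice 41, 78, 65966 and 65967). Each library came from 1 mouse. The question was how microglia of a tumour that regrew after radiation differed from microglia of an untreated tumour.

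All mice carried the same genotype and the same tumour model. They were nTVA Ink4a/Arf KO/KO mice, which express the receptor for the avian RCAS virus under the nestin promoter and lack both proteins of the Ink4a/Arf locus, 1 of which (Arf) restrains the p53 inhibitor Mdm2. At 5 to 6 weeks of age they received DF1 cells (a chicken fibroblast line) producing RCAS-PDGFB-HA in the right frontal cortex, so that gliomas were driven by PDGFB in nestin-positive cells. The groups differed by stage: vehicle, IR recurrence and, for a second comparison, 5 days of IR (2 mice, 65698 and 65972). The radiation dose, the time of recurrence and the identity of the vehicle are not stated in the labels. Tumour-associated microglia (MG) were gated as CD45+CD11b+ cells without Ly6C, Ly6G or CD49d, and bone marrow-derived macrophages (BMDM) of the same tumours by the same markers with CD49d present. CD49d is the integrin subunit encoded by Itga4.

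Microglia are the resident macrophages of the brain. They settle there in embryonic life, depend on the receptor Csf1r, and in the healthy brain express a set of genes that includes P2ry12, Tmem119, Cx3cr1 and Sall1. Radiation breaks DNA and activates p53, which induces genes such as Cdkn1a, the inhibitor of cyclin-dependent kinases known as p21. Damaged tissue can also switch on the type I interferon response, a set of antiviral genes driven by the interferon receptor.

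Total counts ran from 4597962 to 13231166 in the recurrence libraries and from 12043262 to 16904331 in vehicle. The shallowest library, recurrence 68344, also had the fewest genes with at least 10 counts (10944, against up to 12885 in the other recurrence libraries and 11439 to 11722 in vehicle). Levels are given as log2 CPM (counts scaled to a common library total, with a prior count of 1), on which a gene without reads sits at -3.48. The pan-leukocyte gene Ptprc (CD45) lay at 8.35 to 8.55 in recurrence and 8.24 to 9.39 in vehicle. Itgam (CD11b) lay at 10.51 to 10.99 and 10.66 to 11.30, and Ly6c2, which the gate excludes, reached at most 0.11 in recurrence and -0.62 in vehicle. The groups were not balanced for sex-linked genes: the 4 recurrence libraries and vehicle 41 expressed Y-linked genes, and vehicle 78, 65966 and 65967 expressed Xist. The vehicle libraries also fell into 2 sets by Lars2, with 12.03 and 13.78 in mice 41 and 78 and 6.13 and 6.77 in mice 65966 and 65967, against 11.62 to 12.41 in recurrence. Malat1 lay at 7.90 to 8.63 in recurrence and at 8.85 to 10.34 in vehicle, without overlap. No alternative fit held a term for Malat1. The part of these library features in the results was not tested beyond the alternative fits given beside them.

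The change at recurrence was almost entirely upward and lay mostly among genes at low levels in vehicle microglia. Of 14534 genes tested, 610 were higher in recurrence (4.2%) and 20 were lower (0.138%), 4.33% in all, by edgeR's quasi-likelihood test at a Benjamini-Hochberg adjusted p below 0.05. The 4 recurrence libraries all lay above the 4 vehicle libraries for 1625 genes (11.2%) and all below them for 467 (3.21%). The counts given below for lists and families in this comparison are to be read beside these shares. Of the 610 genes that rose, 495 had a mean vehicle level below 0 and 15 one of at least 3. Their median level was -1.53 in vehicle and 2.70 in recurrence, while the median vehicle level of all tested genes was 3.81. Together they held 0.563% to 1.33% of all counts in the recurrence libraries and 0.0947% to 0.106% in vehicle. The 20 genes that fell were well expressed, with a median level of 6.83 in vehicle and 5.85 in recurrence, and held 0.458% to 1.44% of the counts in vehicle and 0.318% to 0.405% in recurrence.

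The number of genes that passed depended on single libraries. Leaving out 1 library at a time left between 197 genes (without vehicle 41) and 521 (without recurrence 68343) higher. The count fell by over 1.5 times without vehicle 41 (197), recurrence 68345 (244), vehicle 65966 (259), recurrence 68346 (347), vehicle 65967 (387) and vehicle 78 (393). The genes that fell numbered 1 without vehicle 65967, 3 without recurrence 68343, 68345 or 68346, 8 without vehicle 41, 33 without vehicle 78 and 53 without vehicle 65966. With a term for the sex-linked profile, 593 genes were higher and 9 lower, and with a term for the Lars2 level 471 and 8. Against the 2 vehicle mice with the low Lars2 level alone, 65966 and 65967, 35 genes were higher and 5 lower. Against the single vehicle library with Y-linked genes, mouse 41, no gene passed the adjusted threshold in either direction by edgeR (685 higher and 101 lower at an unadjusted p below 0.05). That comparison has 1 vehicle mouse, and its spread is that of the other groups.

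**Figure D1:**
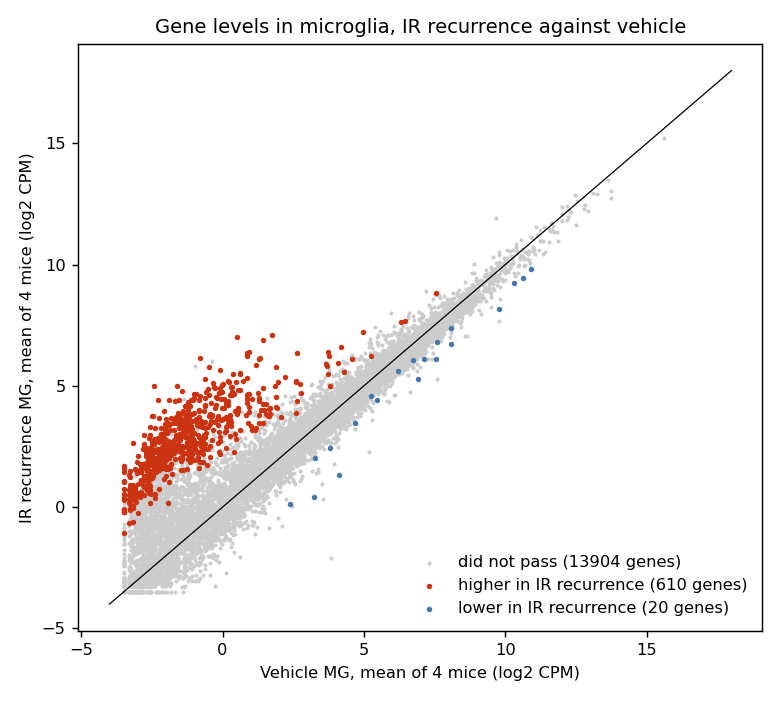
Mean level in vehicle microglia (horizontal axis, log2 CPM) against mean level in IR recurrence microglia (vertical axis, log2 CPM) for the 14534 genes tested, with genes higher or lower at an adjusted p below 0.05 in colour. The 610 genes that rose lie mostly at the left, at vehicle levels below 0, and the 20 that fell lie close to the diagonal at higher levels.

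The 12 largest rises among genes with a level of at least 3 at recurrence and without overlap between the groups were A2m, Expi, Hhipl2, Pnlip, Igfbp3, Sh3gl3, Col11a1, Gfra1, Col18a1, Bmp7, Susd4 and Moxd1. Several encode secreted or matrix proteins. A2m (chromosome 6, 121635376 to 121679227 in GRCm38), which encodes the protease inhibitor alpha-2-macroglobulin, was measured at 4.25, 4.35, 5.67 and 5.77 in recurrence 68343 to 68346 and at -2.72, -1.48, -2.08 and -3.48 in vehicle 41, 78, 65966 and 65967. The vehicle values rest on 6 counts in all, against 1803 in recurrence. A2m rose by 8.25 ± 0.95 (log2 fold change ± SE, n = 4 per group, adjusted p = 0.000142 by edgeR).

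Igfbp3 (chromosome 11, 7206086 to 7213923), a carrier protein of insulin-like growth factors, lay at 5.47, 5.48, 6.78 and 6.94 in the recurrence libraries and at -0.49, 0.52, -3.48 and 0.28 in vehicle. It rose by 6.69 ± 0.76 (edgeR adjusted p = 0.000142). Expi, a small secreted proteinase inhibitor, was uneven within recurrence, at -1.18 in mouse 68343 and at 5.39, 5.32 and 5.57 in the other mice, with vehicle between -3.48 and -1.69. Its change was 8.11 ± 1.65 (edgeR adjusted p = 0.00576). Bmp7, a ligand of the bone morphogenetic protein family, lay at 2.87 to 4.40 in recurrence and -3.48 to -1.11 in vehicle, a rise of 6.28 ± 0.97 (edgeR adjusted p = 0.00111). Gfra1, a co-receptor for the neurotrophic factor GDNF, lay at 3.54 to 5.14 against -2.62 to -1.32. For all 12 genes recurrence 68345 and 68346 were the 2 highest libraries except for Expi. All 12 passed in each fit that left out 1 library.

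The 12 largest falls under the same rule were Gpr165, St8sia6, Siglec5, Slc1a3, Jun, Gal3st4, P2ry12, Gpr34, Sfi1, Capn3, Phyhd1 and Rasal3. Gpr165, an orphan G protein-coupled receptor, lay at 0.58, 0.17, 0.67 and 0.25 in recurrence 68343 to 68346 and at 4.17, 1.57, 1.05 and 6.15 in vehicle 41, 78, 65966 and 65967. The recurrence values were close together and the vehicle values spread widely, with mouse 65967 far above mouse 65966. Gpr165 fell by 4.18 ± 1.08 (edgeR adjusted p = 0.0273). St8sia6, a sialyltransferase, lay at 0.25 to 2.45 against 2.57, 3.21, 3.54 and 7.12, and fell by 3.93 ± 0.86 (edgeR adjusted p = 0.00955). Siglec5, a receptor for sialic acids, lay at 5.06 to 5.71 against 6.04 to 8.32 and fell by 1.88 ± 0.42 (edgeR adjusted p = 0.011).

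Gal3st4, a sulfotransferase that acts on galactose, had vehicle values close together. It lay at 6.52, 7.31, 6.51 and 6.59 in recurrence and at 8.33, 7.85, 7.66 and 8.45 in vehicle, and fell by 1.34 ± 0.25 (edgeR adjusted p = 0.00377). It passed in every fit that left out 1 library. Jun, a subunit of the AP-1 transcription factor, lay at 9.06 to 9.41 against 9.55 to 11.74 and fell by 1.36 ± 0.35 (edgeR adjusted p = 0.0253). Slc1a3, a glutamate transporter, lay at 7.89 to 8.43 against 8.61 to 11.08 and fell by 1.87 ± 0.49 (edgeR adjusted p = 0.0294). Vehicle 65967 was the highest vehicle library for 11 of these 12 genes, and without it Gal3st4 was the single gene of all tested that fell.

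**Figure D2:**
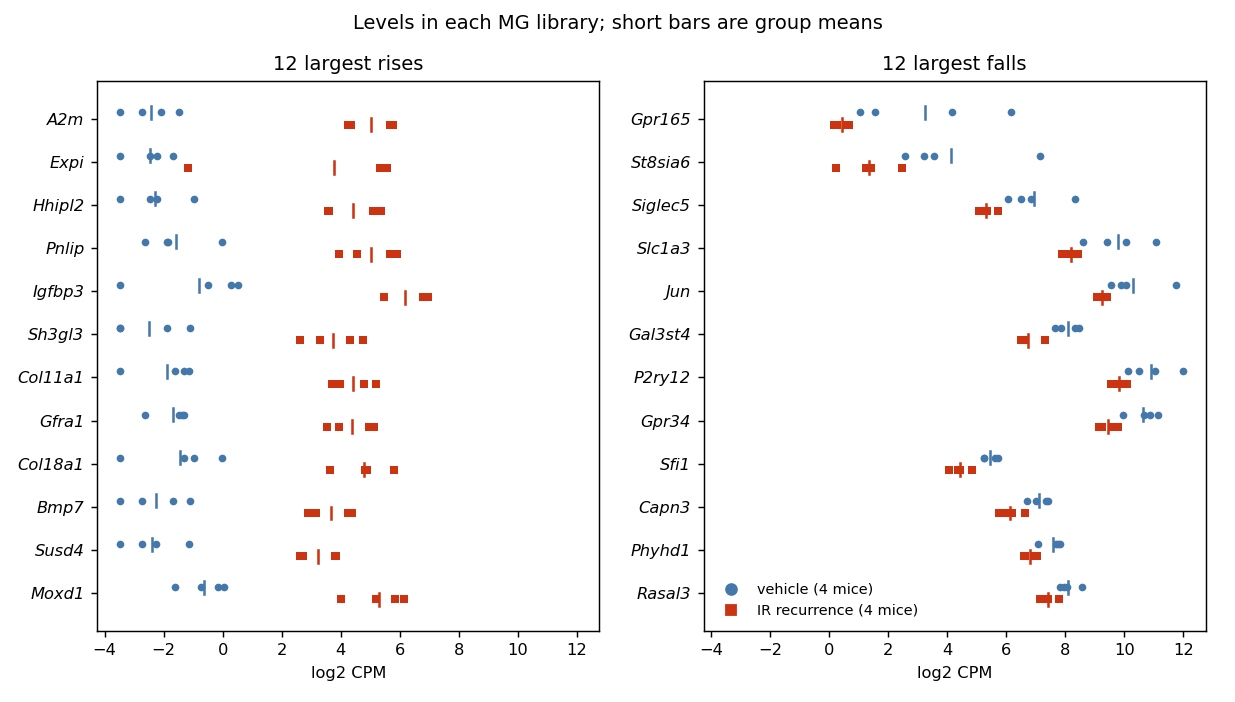
Level (log2 CPM) in each of the 8 microglia libraries of the 12 genes with the largest rises and the 12 with the largest falls, 1 point per library and a bar at the mean of each group. For the rises the vehicle points lie between -3.48 and 0.52, and for most of the falls the vehicle points spread more widely than the recurrence points.

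Genes that distinguish microglia from other macrophages gave 2 falls and no rise at recurrence. Of 25 such genes tested, P2ry12 and Gpr34 fell and 23 did not pass. All 25 had a negative log2 fold change, with a median of -0.72 against -0.003 over all genes tested. P2ry12 (chromosome 3, 59216272 to 59262871), the ADP receptor by which microglia sense injury, lay at 9.75, 10.08, 9.53 and 9.87 in recurrence 68343 to 68346 and at 11.04, 10.48, 10.11 and 11.98 in vehicle 41, 78, 65966 and 65967. The lowest vehicle library lay just above the highest recurrence library, and P2ry12 fell by 1.27 ± 0.33 (edgeR adjusted p = 0.0303). Gpr34 (chromosome X, 13632089 to 13640858), a receptor for lysophosphatidylserine, lay at 9.62, 9.80, 9.12 and 9.25 against 10.65, 10.86, 9.94 and 11.12 and fell by 1.23 ± 0.34 (edgeR adjusted p = 0.0429). These calls were fragile: P2ry12 passed only in the fits without vehicle 78 or 65966, and Gpr34 only in the fit without vehicle 65966. With the sex-linked term (edgeR adjusted p = 0.0594 and 0.0882), with the Lars2 term (0.127 and 0.0745) and in a fit over all 46 libraries (0.0618 and 0.129) neither P2ry12 nor Gpr34 passed. P2ry12 lies within Med12l and Gpr34 within Cask, each on the opposite strand, and counts made without strand could not tell them apart.

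Other microglial genes had values in the same range without passing. Cx3cr1, the fractalkine receptor, lay at 9.89 to 10.40 against 10.04 to 11.55, a difference of -0.93 ± 0.29 (edgeR adjusted p = 0.072). Tmem119 differed by -0.71 ± 0.31, Csf1r by -0.55 ± 0.23 and the transcription factor Sall1 by -0.31 ± 0.34 (edgeR adjusted p = 0.287, 0.259 and 0.96). Their groups overlapped. The summed level of the 25 genes was 25033 to 33975 CPM in recurrence and 28603 to 61706 in vehicle, so that the lowest vehicle library lay inside the recurrence range. In bulk samples fewer cells of a type and less RNA of it per cell cannot be told apart.

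Genes of blood-derived macrophages gave 0 calls of 24 by edgeR in either direction, with 5 higher and 1 lower at an unadjusted p below 0.05 and 3 higher and 0 lower by DESeq2. Their median log2 fold change was 0.81. Vim, an intermediate filament protein, differed by 1.68 ± 0.53 and Ifitm3, an antiviral membrane protein, by 1.51 ± 0.45 (edgeR adjusted p = 0.085 and 0.0612), and both lay higher in all 4 recurrence libraries than in any vehicle library. Ccr2, the chemokine receptor of blood monocytes, lay lower in all 4, at 0.62 to 2.23 against 2.27 to 5.09. Itga4, which encodes CD49d, lay at 2.29, 2.95, 2.93 and 3.27 in recurrence and 1.89, 0.52, 3.33 and 1.84 in vehicle, a difference of 0.68 ± 0.48 (edgeR adjusted p = 0.761). The list summed to 1606 to 2642 CPM against 294 to 1955. In BMDM of the same tumours the same list summed to 3708 to 7782 in recurrence and 3194 to 6278 in vehicle.

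Targets of p53 were split: by edgeR 4 of 24 rose (Phlda3, Eda2r, Cdkn1a and Gdf15), none fell, and the list's median was 0.16. DESeq2 called 4 higher and 1 lower, and 8 of the 24 had a negative log2 fold change. The list summed to 1866 to 2242 CPM in recurrence and 1958 to 3167 in vehicle, so the groups overlapped. Phlda3 (chromosome 1, 135766119 to 135769136), a p53 target that restrains Akt signalling, lay at 4.32, 3.38, 4.63 and 4.26 in recurrence 68343 to 68346 and at 1.01, 1.69, 0.94 and 0.14 in vehicle 41, 78, 65966 and 65967. The groups lay well apart, and Phlda3 rose by 3.24 ± 0.44 (edgeR adjusted p = 0.000629), also in every fit that left out 1 library. Cdkn1a (chromosome 17, 29090976 to 29100727) was abundant in all libraries, at 8.96, 8.49, 8.95 and 8.98 in recurrence and 7.64, 7.47, 7.87 and 7.20 in vehicle. It rose by 1.30 ± 0.34 (edgeR adjusted p = 0.0294) and passed, among the fits that left out 1 library, only in that without recurrence 68344. With the sex-linked term its adjusted p was 0.240 and with the Lars2 term 0.162 by edgeR, whereas Phlda3 passed with both.

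The other p53 targets that rose were lower in level. Eda2r, a receptor of the tumour necrosis factor family, lay at 0.41 to 1.86 against -2.26 to -1.39 and rose by 3.61 ± 0.87 (edgeR adjusted p = 0.0178). Gdf15, a secreted stress cytokine, lay at 3.61 to 4.45 against 0.54 to 3.14 and rose by 1.88 ± 0.53 (edgeR adjusted p = 0.0443). Eda2r passed only in the fits without recurrence 68343 or 68344, and Gdf15 only in that without vehicle 65966. With the sex-linked term 2 of the 24 targets rose and with the Lars2 term 1. Mdm2, the ubiquitin ligase that degrades p53 and is itself a target, differed by -0.02 and Trp53, which encodes p53, by -0.05, with neither passing. Of the 24 targets, 16 were matched to RefSeq promoters (GRCm38.p6), and 7 of the 16 held a p53 half-site in the 250 bases before a start, against 8.2% of 27025 genes. The list was made of known p53 targets, so its share is no result about recurrence. Of the 4 targets that rose, 1 held a half-site: Cdkn1a, whose window is shown with its 2 half-sites in capitals (chr17:29090729-29090978, plus strand). A second annotated start of Cdkn1a and the window of Phlda3 held none of these letters.
Cdkn1a: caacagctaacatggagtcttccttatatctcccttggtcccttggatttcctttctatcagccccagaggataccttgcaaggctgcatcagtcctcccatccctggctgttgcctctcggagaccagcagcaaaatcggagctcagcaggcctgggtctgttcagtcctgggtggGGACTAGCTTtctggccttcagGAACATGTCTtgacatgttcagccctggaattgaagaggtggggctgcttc

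Genes of the type I interferon response lay above vehicle in most cases, with 1 gene passing. Of 22 genes, Rsad2 rose, 21 did not pass, and none fell, while 4.2% of all genes tested rose. All 22 had a positive log2 fold change, with a median of 1.08. Of them 16 lay higher in all 4 recurrence libraries than in any vehicle library, against 11.2% of all genes tested. Rsad2 (chromosome 12, 26442746 to 26456452), the antiviral enzyme viperin, lay at 8.10, 6.68, 6.95 and 7.09 in recurrence 68343 to 68346 and at 5.26, 5.26, 5.68 and 3.68 in vehicle 41, 78, 65966 and 65967. Mouse 68343 was the highest and vehicle 65967 the lowest, and Rsad2 rose by 2.18 ± 0.49 (edgeR adjusted p = 0.0113). Without vehicle 41 it did not pass (adjusted p = 0.0581 by edgeR).

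Isg15, a ubiquitin-like modifier, lay at 5.90 to 7.02 against 3.89 to 5.60 and differed by 1.25 ± 0.38 (edgeR adjusted p = 0.0692). Ifit3, which binds viral RNA together with its relatives, lay at 6.95 to 7.20 against 4.81 to 6.41 and differed by 1.17 ± 0.37 (edgeR adjusted p = 0.0862). Irf7, the transcription factor that amplifies the response, lay at 7.31 to 7.56 against 5.18 to 6.77 and differed by 1.28 ± 0.46 (edgeR adjusted p = 0.156). Stat2, a transcription factor that carries the receptor's signal, differed by 0.43 without overlap and did not pass (edgeR adjusted p = 0.743). The list summed to 2097 to 2855 CPM in recurrence and 704 to 1614 in vehicle. DESeq2 called 4 of the 22 higher, and edgeR called 5 without the 6 libraries of the study that were doubted for few detected genes or for the labels of mouse 65698, of which recurrence 68344 is the only one among these 8. A fit of only the 8 libraries compared called 11 of the 22 higher, and a fit over all 46 libraries called none by edgeR.

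The promoters of the interferon genes were searched for 1 motif. It is the core of the interferon-stimulated response element, GAAA followed by any 2 bases and a second GAAA, and it was found on either strand in the 250 bases before a start for 8 of the 15 interferon genes with a RefSeq promoter, against 3.46% of 27025 genes. It was present in 6 of the 11 whose libraries did not overlap. The list was made of genes known to be induced by interferon, so its share is no result about recurrence. The windows of Rsad2 (chr12:26456453-26456702, minus strand, 1 match), Isg15 (chr4:156200819-156201068, minus strand, 3 overlapping matches) and Ifit3 (chr19:34583279-34583528, plus strand, 2 matches) are shown because these genes carry the group's values, with the matches in capitals.
Rsad2: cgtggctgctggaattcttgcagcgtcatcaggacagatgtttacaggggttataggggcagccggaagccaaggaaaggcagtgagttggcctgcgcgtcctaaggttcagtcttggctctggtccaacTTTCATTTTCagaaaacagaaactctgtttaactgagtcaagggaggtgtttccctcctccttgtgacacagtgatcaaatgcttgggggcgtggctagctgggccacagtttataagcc
Isg15: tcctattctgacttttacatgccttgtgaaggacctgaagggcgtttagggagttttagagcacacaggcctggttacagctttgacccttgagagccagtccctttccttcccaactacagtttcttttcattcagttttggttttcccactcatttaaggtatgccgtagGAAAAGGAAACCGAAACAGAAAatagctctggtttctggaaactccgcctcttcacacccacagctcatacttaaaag
Ifit3: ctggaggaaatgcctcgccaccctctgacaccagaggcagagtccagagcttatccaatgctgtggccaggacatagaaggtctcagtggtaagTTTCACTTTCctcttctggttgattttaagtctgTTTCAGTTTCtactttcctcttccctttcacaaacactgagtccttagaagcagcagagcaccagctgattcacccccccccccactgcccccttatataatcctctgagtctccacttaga
In Rsad2 and Ifit3 the matches lie on the opposite strand and read as copies of TTTC. A match describes the letters and is no measured binding site.

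**Figure D3:**
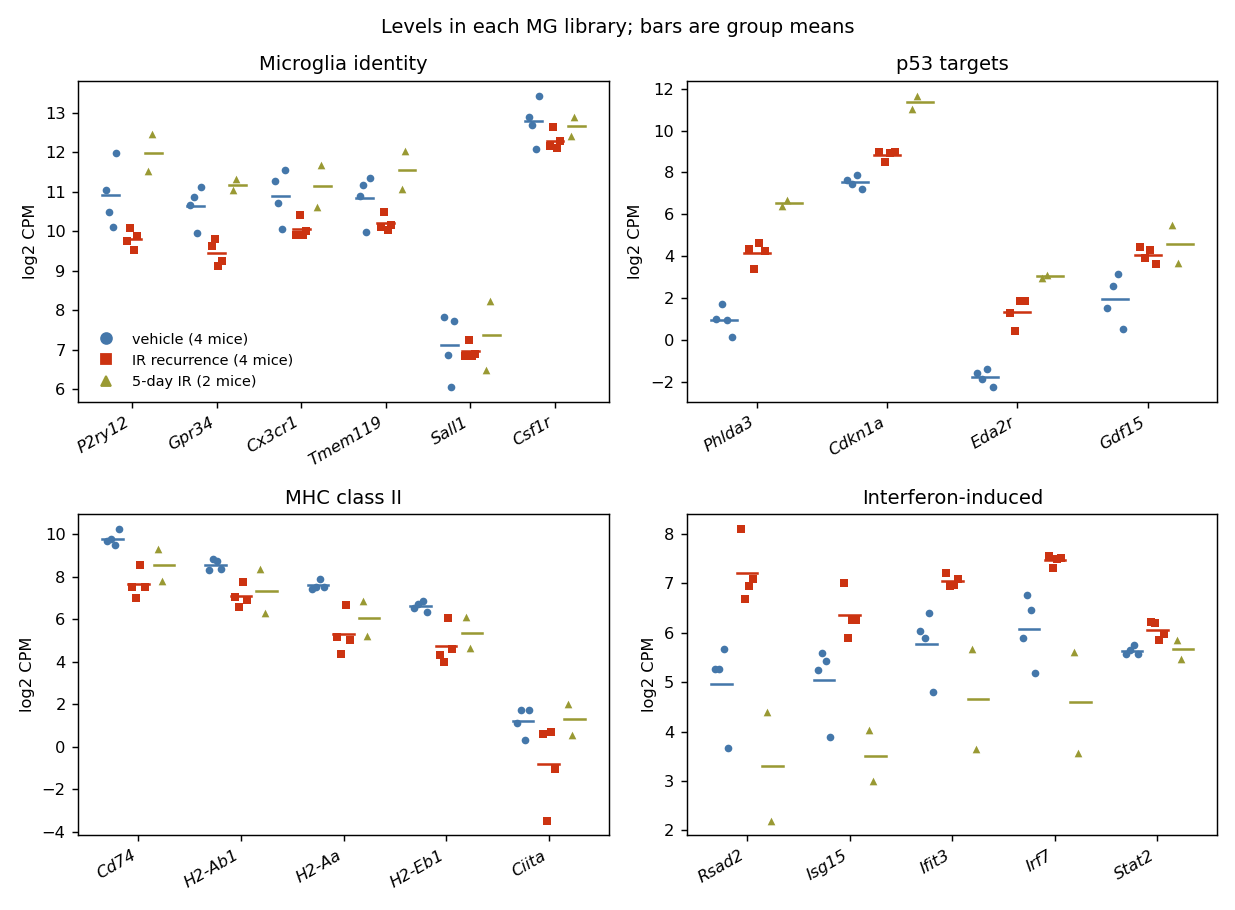
Level (log2 CPM) of microglia identity genes, p53 targets, MHC class II genes and interferon-induced genes in each vehicle, IR recurrence and 5-day IR microglia library, 1 point per mouse with the group mean as a bar. Cdkn1a and Phlda3 are lowest in vehicle, higher at recurrence and highest at 5 days, while Rsad2 is highest at recurrence and Cd74 lies lower at recurrence than in any vehicle library.

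Genes of antigen presentation by MHC class II lay below vehicle without a call. Of 10 genes, 0 passed in either direction by edgeR, with 0 higher and 5 lower at an unadjusted p below 0.05 and 0 higher and 1 lower by DESeq2. A fit of only the 8 libraries compared called 5 of the 10 lower, and a fit over all 46 libraries called 1. The median log2 fold change was -1.30, and 5 genes lay lower in all 4 recurrence libraries than in any vehicle library. Cd74, the invariant chain that guards the class II groove, lay at 7.53, 7.02, 8.55 and 7.53 in recurrence 68343 to 68346 and at 9.66, 9.80, 9.47 and 10.25 in vehicle 41, 78, 65966 and 65967, a difference of -2.05 ± 0.67 (edgeR adjusted p = 0.0948). H2-Ab1, a class II chain, lay at 6.59 to 7.77 against 8.32 to 8.86 and differed by -1.45 ± 0.68 (edgeR adjusted p = 0.376). Ciita, the master regulator of these genes, differed by -1.42 ± 0.93 with overlapping groups. The list summed to 580.4 to 1096 CPM in recurrence and 1769.5 to 2176 in vehicle. Of 9 dendritic cell markers, which also carry class II, none passed by edgeR (0 higher and 3 lower at an unadjusted p below 0.05, 1 lower by DESeq2), and Flt3 and Cd209a lay lower in all 4 recurrence libraries. All 11 markers found summed to 764 to 836 CPM in recurrence and 593 to 1648 in vehicle, and none was at 0 in all 8 libraries. Siglech, 1 of them, is also in the microglia identity list, so the sum is not one of dendritic cells alone. The part of dendritic cells in the class II values was not tested. In BMDM of the same tumours 7 of the 10 genes fell, with a median of -1.70. MHC class I genes gave 0 calls of 13 by edgeR (0 in either direction at an unadjusted p below 0.05 and by DESeq2), with a median of 0.17.

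Lists of genes linked to the states of tumour-associated macrophages gave few calls. The 26 cell division genes gave 0 calls by edgeR, 0 at an unadjusted p below 0.05 and 0 by DESeq2, with a median of 0.16, which was -0.17 with a term separating 5-digit from shorter mouse numbers. Mki67, the proliferation marker, lay at 6.24, 6.30, 6.02 and 6.16 in recurrence and at 5.74, 5.47, 7.28 and 5.14 in vehicle, a difference of 0.01 ± 0.62. Of 24 genes of disease-associated and lipid-laden microglia 1 fell, Itgax, the integrin CD11c, at 5.82 to 6.61 against 6.59 to 8.97 (-1.73 ± 0.46, edgeR adjusted p = 0.0325). Its groups overlapped, and among the fits that left out 1 library it passed only without vehicle 41 or 65966. It did not pass with the sex-linked term or the Lars2 term (edgeR adjusted p = 0.355 and 0.112). Apoe, the lipid carrier, differed by -0.67 ± 0.55. Gpnmb, a glycoprotein of lipid-laden macrophages, lay at 7.86 to 8.25 in recurrence and 3.68 to 7.16 in vehicle, a difference of 1.55 ± 0.73 (edgeR adjusted p = 0.38).

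Genes of alternative activation gave 0 calls of 18 by edgeR, with 0 higher and 1 lower at an unadjusted p below 0.05 and 0 higher and 1 lower by DESeq2. Arg1 differed by -0.01 ± 1.19, Mrc1 by -0.04 ± 0.68 and the growth factor Igf1 by -0.17 ± 0.67. Chemokines (21 genes) and cytokines (19) gave 0 calls each by edgeR and by DESeq2. At an unadjusted p below 0.05, 1 chemokine was higher and 1 lower, and 1 cytokine was higher. Of 17 genes of sterol synthesis and uptake 1 rose, Sqle, squalene epoxidase, at 3.96 to 5.24 against 2.33 to 3.62 (1.96 ± 0.43, edgeR adjusted p = 0.00947). Without vehicle 41 it missed the threshold (adjusted p = 0.0516 by edgeR). A further 5 sterol genes lay higher in all 4 recurrence libraries without passing.

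Among border-associated macrophage genes 1 of 11 rose, Siglec1, a sialic acid receptor that interferon also induces, at 6.00, 5.21, 6.03 and 6.09 in recurrence and 3.91, 4.32, 4.07 and 2.41 in vehicle (2.05 ± 0.52, edgeR adjusted p = 0.0234). It passed in the fits without recurrence 68343 or 68344 or vehicle 78, and not with the sex-linked term or the Lars2 term (edgeR adjusted p = 0.0519 and 0.0884). The 18 immediate early genes gave 1 fall, Jun, with a median of -0.43. The 13 heat shock genes gave 0 calls by edgeR, with 0 higher and 5 lower at an unadjusted p below 0.05 and 1 lower by DESeq2, and summed to 3894 to 3979 CPM in recurrence and 4481 to 7622 in vehicle. Oxidative phosphorylation (27 genes) and ribosomal proteins (77) gave 0 calls by edgeR, 0 at an unadjusted p below 0.05 and 0 by DESeq2.

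Genes of glioma cells and oligodendrocyte precursors, which PDGFB-driven gliomas are known to express, had the highest median of the lists. Of 14 genes 10 rose and none fell, with a median of 4.76. Olig1 (chromosome 16, 91269772 to 91271933), a transcription factor of the oligodendrocyte lineage, lay at 6.60, 6.54, 7.65 and 7.55 in recurrence 68343 to 68346 and at 1.56, 2.65, 0.06 and 2.79 in vehicle 41, 78, 65966 and 65967. It rose by 5.10 ± 0.74 (edgeR adjusted p = 0.000894). Pdgfra, the PDGF receptor of precursor cells, lay at 6.18, 6.69, 7.50 and 7.77 against 1.26, 1.05, -3.48 and 3.16 and rose by 5.43 ± 0.94 (edgeR adjusted p = 0.00207). The 8 libraries fell into 2 separate sets for both genes.

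Sox2, a stem cell transcription factor, lay at 2.37 to 3.44 against -2.72 to -1.89 and rose by 5.83 ± 0.93 (edgeR adjusted p = 0.0013). Sox10 rose by 4.99 ± 0.83 and Ncan, the proteoglycan neurocan, by 5.41 ± 0.92 (edgeR adjusted p = 0.00182 and 0.00206). The mouse gene Pdgfb differed by 0.79 (edgeR adjusted p = 0.268), and Cspg4 and Nes did not pass. Whether the Pdgfb counts take in the PDGFB of the RCAS virus is not given in the sources used here. Between 7 and 10 of the 14 rose when 1 library was left out, and 1 rose against vehicle 65966 and 65967 alone. In the joint fit of both populations the 14 genes summed to 471, 553, 870.3 and 950.3 CPM in recurrence microglia and to 119, 179.9, 124 and 115 in vehicle microglia. In BMDM of the same mice they summed to 178, 317, 291 and 396 in recurrence and 18.8, 28.1, 20.5 and 27.6 in vehicle, and 11 of the 14 rose there, with a median of 4.29. The part of RNA from tumour cells in the rises described above was not tested.

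**Figure D4:**
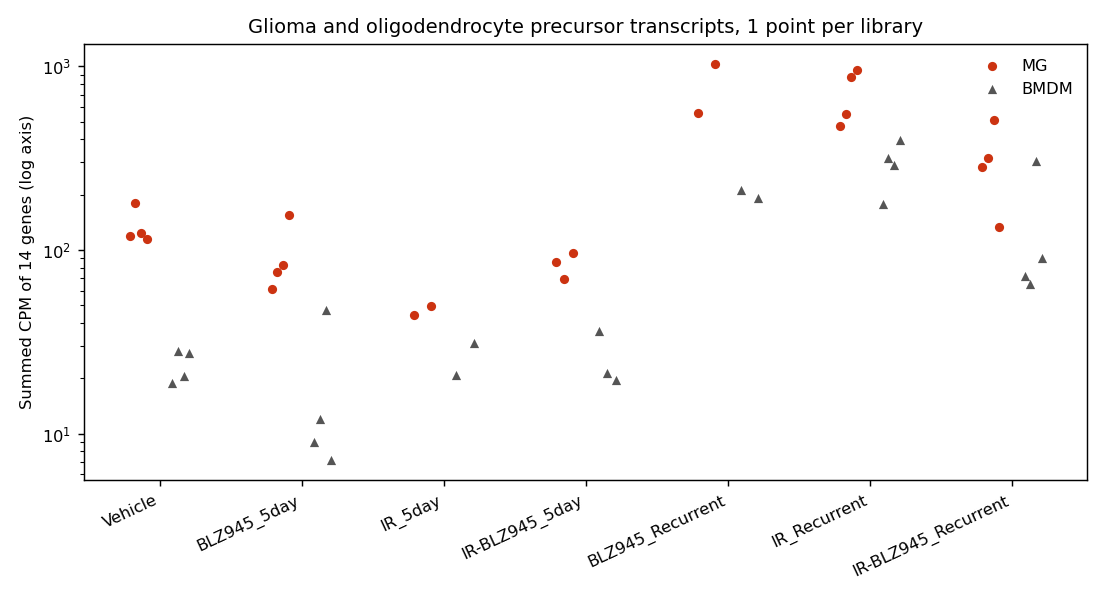
Summed level of the 14 glioma and oligodendrocyte precursor genes (CPM, log axis) in each microglia (MG) and BMDM library of all 7 stages of the study, 1 point per library. Recurrence microglia lie at 471 to 950.3 and vehicle microglia at 115 to 179.9, and BMDM of the same 2 stages show the same order at lower values.

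Some genes of the extracellular matrix and of growth factor signalling were also higher. Of 25 genes of matrix and matrix proteases 6 rose and none fell (median 1.42), among them Tnc, tenascin C (5.32 ± 1.13), and the basement membrane chains Col4a1 (4.39 ± 1.17) and Col4a2 (3.95 ± 1.05), whose gene ends overlap (edgeR adjusted p = 0.00812, 0.0323 and 0.0319). Timp1, an inhibitor of matrix proteases, passed at 5.83 ± 1.28 (edgeR adjusted p = 0.00975), but it lies inside Syn1, a neuronal gene that also passed, on the opposite strand, and their reads could not be told apart without strand. By edgeR no matrix gene passed without recurrence 68345 or vehicle 41, where the list's median was 1.04 and 1.25, 1 passed without vehicle 65966 and 2 without vehicle 78. With the Lars2 term 3 rose, and in a fit over all 46 libraries 2. With all 8 libraries 11 were higher and 1 lower at an unadjusted p below 0.05, and DESeq2 called 8 higher. Of 35 collagen genes 9 rose and 14 lay higher in all 4 recurrence libraries, with 3 to 7 rising when 1 library was left out. The 35 are those of 43 symbols that passed the count filter, which a gene high in recurrence alone could pass. Without that filter 7 of 43 rose.

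Of 6 Igfbp genes 3 rose in the full fit and in each fit without 1 library: Igfbp3, Igfbp2 and Igfbp7. The 6 are those of 7 symbols that passed the same count filter, and without the filter 3 of 7 rose. Igfbp2 lay at 5.57, 4.66, 6.60 and 6.37 in recurrence and at -0.16, 1.33, -2.08 and -0.99 in vehicle (6.10 ± 0.94, edgeR adjusted p = 0.00111). Igfbp7 lay at 3.23 to 4.63 against -3.48 to 0.60 (5.27 ± 1.04, edgeR adjusted p = 0.00491). Of 20 growth factor and wound repair genes 2 rose: Igfbp7 and Ctgf, the matricellular protein, at 2.01 to 3.51 against -3.48 to -1.61 (6.05 ± 1.16, edgeR adjusted p = 0.00386). Wnt7b, a secreted ligand that gliomas and precursor cells express, lay at 2.21 to 3.63 against -2.75 to -1.16 and rose by 5.44 ± 0.89 (edgeR adjusted p = 0.00167).

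Families of genes for neural membrane proteins, named by their symbols, held some of the genes that rose. They were chosen after the values had been seen and are given as counts. Among cadherins and protocadherins 17 of 61 rose and 27 lay higher in all 4 recurrence libraries. Among glutamate receptors 4 of 18 rose and 12 lay higher in all 4. Among potassium channel subunits 7 of 52 rose, and among sodium and calcium channel subunits 3 of 23. Over all genes tested 4.2% rose and 11.2% lay higher in all 4. The totals hold the members that passed the count filter (of 94, 27, 93 and 39 symbols). A gene high in recurrence alone could pass that filter. The cadherin count ran from 2 to 15 when 1 library was left out and was 6 in a fit over all 46 libraries, and close paralogs in the protocadherin cluster may share reads. Gria2, an AMPA receptor subunit, lay at 3.37 to 5.13 in recurrence and -1.13 to 0.71 in vehicle (4.57 ± 0.91, edgeR adjusted p = 0.00491). Cdh2, N-cadherin, lay at 2.34 to 4.15 against -2.72 to -0.48 (5.12 ± 1.00, edgeR adjusted p = 0.00428). Pcdhb10 had 101 counts in the recurrence libraries and 0 in vehicle, at least 41.9-fold higher against a floor of 3 counts over the vehicle group. Cacna1h, a calcium channel subunit, had 161 counts against 0, at least 66.9-fold higher on the same floor.

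Of 8 neuronal genes 2 rose, Tubb3 and Syn1, and the list summed to 15.3 to 35.6 CPM against 0.732 to 3.77. Tubb3, a neuronal tubulin, lay at 2.34 to 3.76 against -3.48 to -0.89 (5.51 ± 0.95, edgeR adjusted p = 0.00206). Of 10 astrocyte genes 2 rose, Slc1a2 and Clu, and 1 fell, Slc1a3, which microglia in these libraries also carried at 7.89 or more, while Gfap, the astrocyte filament, differed by 1.52 without passing (edgeR adjusted p = 0.482). Clu did not pass in any fit that left out 1 library. Of 7 myelin genes 1 rose, Cldn11, and Mbp did not pass. Of 9 pericyte and fibroblast genes 2 rose, Col1a1 (5.28 ± 1.41) and Col1a2 (edgeR adjusted p = 0.0325 and 0.0389), and the list summed to 100.5 to 165 against 45.1 to 101. Col1a1 passed in 3 of the 8 fits that left out 1 library (without recurrence 68343, 68344 or 68346) and Col1a2 in 1 (without recurrence 68343), and neither passed with the sex-linked term, with the Lars2 term or in the fit over all 46 libraries. Of 8 choroid plexus genes 1 rose, Enpp2. The choroid plexus carrier Ttr ranged from -3.48 to 4.18 within recurrence. The 9 endothelial genes gave 0 calls by edgeR, with 4 higher at an unadjusted p below 0.05 and 1 higher by DESeq2, and 5 lay higher in all 4 recurrence libraries. The part of RNA from these cells in the results was not tested.

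Lists of markers of other blood cells gave no call. T and NK cell genes summed to 1.24 to 5.00 CPM in recurrence and 1.54 to 25.2 in vehicle, with 0 calls of 10 by edgeR and by DESeq2 and 5 lower at an unadjusted p below 0.05. Their median was -2.66, or -2.42 with the 2 genes without a recurrence count placed at their bound. Those 2 were Cd3e, with 36 counts in vehicle (at least 9.63-fold lower), and Il2rb, with 47 (at least 12.6-fold lower). The neutrophil list summed to 281 to 462 CPM in recurrence and 281 to 715 in vehicle. It gave 0 calls of 6 by edgeR (2 higher and 1 lower at an unadjusted p below 0.05, 1 higher by DESeq2), and S100a8, an alarmin of neutrophils and monocytes, lay at 6.72 in recurrence 68343 and at -0.13, 2.16 and 0.66 in the other recurrence mice.

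**Figure D5:**
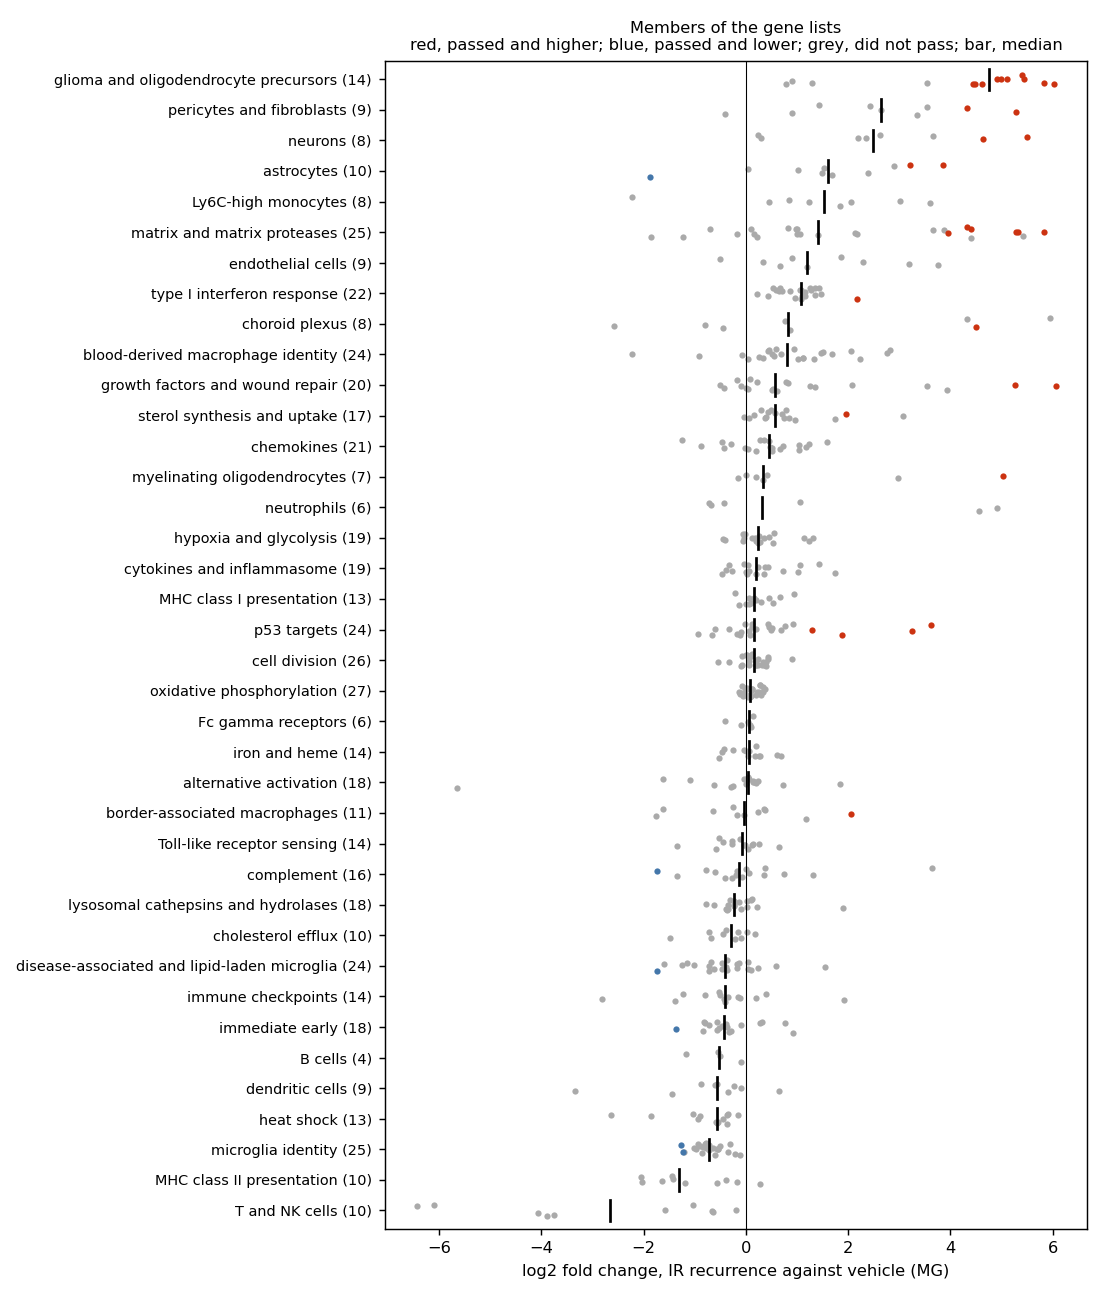
Log2 fold change of IR recurrence over vehicle microglia for each gene tested in each list (1 point per gene, red or blue where it passed), with the list's median as a bar and the number of genes tested in brackets. Glioma and oligodendrocyte precursor genes have a median of 4.76 with 10 of 14 rising, interferon genes 1.08 with 1 of 22, and MHC class II genes -1.30 with none of 10.

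Microglia at recurrence were also set against microglia at 5 days of IR (2 mice). That comparison shares the recurrence libraries with the main one. Of 14534 genes 1182 were higher at recurrence (8.13%) and 498 lower (3.43%), with a median of 0.07. Lars2 lay at 5.10 and 6.41 in the 5-day libraries of 65698 and 65972, against 11.62 to 12.41 in recurrence. Malat1 lay at 11.54 and 10.79 against 7.90 to 8.63. With a term for the Lars2 level 242 genes were higher and 79 lower, of which 230 and 26 had passed without it. The part of these library features in this comparison was not tested beyond that fit. Of 26 cell division genes 25 were higher at recurrence, with a median of 6.56. Mki67 lay at 6.02 to 6.30 at recurrence and at -1.96 and 0.12 at 5 days, and vehicle lay with recurrence. The p53 targets lay the other way, with 10 of 24 lower at recurrence and none higher. Cdkn1a stood at 11.02 and 11.67 at 5 days and the log2 fold change of recurrence over 5 days was -2.52 (edgeR adjusted p = 0.000916), and Phlda3 stood at 6.40 and 6.68 with a log2 fold change of -2.33 (edgeR adjusted p = 0.00329). For both genes the recurrence libraries lay between vehicle and 5 days.

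Interferon genes were higher at recurrence than at 5 days for 11 of 22 (median 2.19), and Rsad2 lay at 4.40 and 2.20 at 5 days. Oxidative phosphorylation genes were higher for 18 of 27 and ribosomal protein genes for 68 of 77. Microglia identity genes were lower at recurrence for 8 of 25, P2ry12 among them, at 11.51 and 12.45 at 5 days. Precursor genes were higher for 11 of 14 (median 6.00). Gpr165 (-5.20 ± 1.19) and Lyve1, a hyaluronan receptor of border-associated macrophages (-4.76 ± 1.12), were the 2 largest falls (edgeR adjusted p = 0.00777 and 0.0121). The count depended on the 5-day mice: without 65698, 398 genes were higher and 167 lower, and without 65972, 247 and 111. Each of these fits leaves 1 library at 5 days, which is assumed to vary like the other groups. The microglia of mouse 65698 expressed Xist and its BMDM Y-linked genes, so that the 2 libraries labelled with that mouse did not match each other. Without 65698, 21 cell division genes, 9 interferon genes, 7 oxidative phosphorylation genes, 30 ribosomal protein genes and 5 precursor genes were higher and 9 p53 targets and 7 microglia identity genes lower. Without 65972, 19 cell division genes, 1 oxidative phosphorylation gene, 7 ribosomal protein genes and 6 precursor genes were higher, 8 p53 targets were lower, and no interferon gene (median 1.49) or microglia identity gene (median -0.73) passed by edgeR. With all libraries DESeq2 called 13 interferon genes higher and 11 microglia identity genes lower.

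The response of microglia at recurrence was compared with that of BMDM from the same tumours. In the joint fit, 379 of 15901 genes rose (2.38%) and 249 fell (1.57%) in BMDM. The joint fit called fewer genes in microglia than the fit over microglia alone, with 279 higher and 10 lower. The shares that follow set the microglia-only fit beside the joint fit for BMDM. Of the 610 genes that rose in microglia 242 also rose in BMDM, which is 39.7% of the microglial and 63.9% of the BMDM genes. Of the genes that fell 5 were shared, 25% of the 20 microglial and 2.01% of the 249 BMDM genes. The difference between the 2 responses passed for 3 genes (0.0189%), all with the larger change in microglia: Cd200, Ccnd2 and Adora2a.

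Cd200, a membrane ligand that restrains myeloid cells through its receptor, lay in the joint fit at 3.60, 2.66, 4.02 and 4.22 in recurrence microglia and at -2.71, 0.60, -2.64 and -0.32 in vehicle microglia. In BMDM it lay at 3.03, 2.34, 3.39 and 3.14 in recurrence and at 4.92, 4.97, 4.29 and 3.19 in vehicle. In BMDM the groups overlapped, and the change of -1.48 ± 0.63 did not pass (edgeR adjusted p = 0.199). The difference between the responses was 6.06 ± 0.98 (edgeR adjusted p = 0.00436). Ccnd2, a D-type cyclin, lay at 5.26, 5.81, 7.09 and 7.17 against 1.76, 3.44, 3.23 and 2.46 in microglia and at 6.64 to 7.37 against 6.47 to 7.76 in BMDM, a difference of 3.86 ± 0.73 (edgeR adjusted p = 0.0355). Adora2a, the adenosine A2a receptor, differed by 5.30 ± 1.02 (edgeR adjusted p = 0.0355) and was not called in microglia alone (edgeR adjusted p = 0.083). Its microglial values rest on 67 counts in recurrence and 6 in vehicle. In BMDM it changed the other way, by -1.95 ± 0.64, without passing (edgeR adjusted p = 0.0753). With the mouse as a replicate block 0 genes passed by edgeR (424 higher and 297 lower at an unadjusted p below 0.05), and DESeq2 called 67. No p53 target or interferon gene passed this test of the difference. On simulated counts the test recovered 4 of 100 genes with a difference of 1 and 66 of 100 with a difference of 3. A difference that did not pass is therefore not shown to be absent. Cdkn1a rose by 1.30 in the fit over microglia alone. In the joint fit it differed by -0.02 in BMDM, and the difference between the responses was 1.22 ± 0.44 (edgeR adjusted p = 0.71). Phlda3 rose in both populations, by 3.17 in BMDM (edgeR adjusted p = 0.00351).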

How the data were processed

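Per the submitters' processing notes, the reads were handled with CASAVA 1.8, STAR 2.5.0e, HTSeq and DESeq2 on mm10. The authors deposited whole-number counts of reads per gene symbol, without normalization. The gene annotation and the strand setting are not given in the sources used here. Reads of overlapping genes and close paralogs cannot be told apart. Libraries came from a Smart-Seq kit, a full-length amplification without molecular identifiers, and floors cover counting error only.

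Groups were taken from the labels. edgeR's quasi-likelihood test (edgeR 4.0.16, R 4.3.3, TMM scaling, robust, filterByExpr with a minimum count of 10) was fitted once over the 23 microglia libraries, which gave 14534 genes and 16 residual degrees of freedom, and once over all 46 libraries (15901 genes) for the difference between populations. P-values were adjusted by Benjamini and Hochberg over all genes. SE is the log2 fold change divided by the root of F. Alternatives included DESeq2 1.42.0. Replicates are separate mice, and no pair of libraries was a duplicate (smallest chi-square per degree of freedom 10.1). Microglia and BMDM of a mouse share its number in the labels. The mouse deviations of the 2 populations correlated at 0.23 to 0.32 in recurrence and at 0.08 to 0.15 in vehicle.

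On simulated counts the test against vehicle recovered 93 of 100 genes changed by 3 on the log2 scale and 24 of 100 changed by 1, with 4 false calls. The test against 5 days recovered 82 and 8, and the test of the difference between populations 66 and 4. The changed genes were drawn from the better expressed genes, so recovery was not measured for genes of low average level. The members and gene lists were chosen with earlier results of these data known. Summed levels of a list take in all its members found, also those too low to be tested. The genes named are the 12 largest rises and falls (passing, level of at least 3 log2 CPM in the higher group, no overlap, no predicted or sex-linked genes), up to 4 members of each list that passed in order of p, otherwise up to 2 with the smallest p, and a short list of genes followed throughout. Other genes were named after their values had been seen. Gene positions are from GENCODE (GRCm38) for 22814 of 23329 symbols.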

Additional observations from a re-analysis of the deposited data

Results flagged for a closer look

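In 5 of 76 groups of 4 libraries examined, 1 library stood apart from the others by more than Dixon's 95% limit for 4 samples, a limit that chance passes in about 1 group in 20. Expi lay at -1.18 in recurrence 68343 and at 5.32 to 5.57 in the other recurrence libraries. Gfra1 lay at -2.62 in vehicle 65966 and at -1.48 to -1.32 in the other vehicle libraries. The remaining 3 concern recurrence 68344, the shallowest of the 8 libraries: Gal3st4 at 7.31 against 6.51 to 6.59, Sall1 at 7.25 against 6.84 to 6.89, and Cdkn1a at 8.49 against 8.95 to 8.98.

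The response at recurrence differed between microglia and BMDM by edgeR's test of the difference for Cd200 (6.06), Adora2a (5.30) and Ccnd2 (3.86), each on the log2 scale and larger in microglia. With the mouse as a replicate block none of these differences passed.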

How the results depend on the processing

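Of the named genes that had passed, 50 were followed through the alternatives run, and none of these changed direction. Others, such as Pdgfra, Igfbp2 and Gria2, were not among the 50. The median of 12 of the 38 lists, each within 0.342 of 0 as reported, changed sign under at least 1 alternative. That of 4 of the 13 symbol families also did. Of the 50 genes followed, 35 passed again with the sex term, 31 with the Lars2 term and 30 in 1 fit over all 46 libraries. Genes higher at recurrence numbered 610 in the reported fit, and 957 without the doubted libraries (recurrence 68344 among these 8), 1006 in a fit of only the groups compared, 400 with a term separating 5-digit from shorter mouse numbers, 279 in 1 fit over all 46 libraries, 35 against only the vehicle mice with 5-digit numbers, and 0 against only vehicle mouse 41, an alternative chosen after seeing the data (685 at an unadjusted p below 0.05). Genes lower numbered 20, and 83, 127, 39, 10, 5 and 0 (101 unadjusted) under the same settings, 69 by DESeq2, 13 without the low-count filter, 9 with the sex term and 8 with the Lars2 term. Without 1 library the genes higher ran from 197 to 521 and those lower from 1 to 53. Of the 610 and 20 genes, DESeq2 called 607 and 20 again. Against the 5-day mice 1680 genes passed, and 2849 by DESeq2, 321 with the Lars2 term, 5583 with only the groups compared, 1095 in 1 fit over all libraries and 358 to 1351 without 1 library. The difference between the populations passed for 3 genes, and for 67 by DESeq2, 5 with DESeq2's size factors, 5 with the sex term, 52 without the doubted libraries, 110 with only the groups compared, 0 with the mouse as replicate block, and 1 to 4 without 1 library. Small changes were often missed. The simulated recovery at a log2 change of 1 was 24 of 100 genes against vehicle, 8 against 5 days and 4 for the difference between populations. A gene that missed the threshold is therefore not shown to be unchanged.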

Other observations

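The 15 genes that rose and that vehicle microglia already expressed at a mean level of at least 3 were named after their values had been seen. They were Arl2bp, Cdkn1a, Cfl2, Fyn, Gpm6b, Hgsnat, Hip1, Il1rap, Lmo4, Metrn, Ndst1, Rbm3, Rsad2, Siglec1 and Tpm1. Tpm1, a tropomyosin of the actin cytoskeleton, rose by 2.56 ± 0.39 (n = 4 per group, edgeR adjusted p = 0.000974). Il1rap, the shared co-receptor of interleukin-1 family receptors, rose by 2.43 ± 0.56 and Lmo4, a LIM-domain transcription regulator, by 1.96 ± 0.35. Rbm3, an RNA-binding protein induced by cold, rose by 1.28 ± 0.26 and Hgsnat, a lysosomal enzyme of heparan sulfate breakdown, by 1.25 ± 0.27.

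Recurrence 68343 was the highest recurrence library for 2 genes of neutrophils and monocytes, named after their values had been seen. S100a9 lay at 6.73 in it and at -1.75, 0.96 and -2.02 in mice 68344, 68345 and 68346. Hp, haptoglobin, lay at 2.46 against -0.99, 0.33 and -0.48.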
